A study of Mus musculus with 4 samples.

Results

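Open chromatin was examined at 6 genes whose products make, or help to make, reactive oxygen or nitrogen species in epithelium: Nox1, Noxo1, Noxa1, Duox2, Duoxa2 and Nos2. Their regions were those lying in a gene or within 100 kb of it, after peaks of 4 ATAC-seq libraries that overlapped by at least 1 bp had been merged. This gave 167 of the 119852 merged regions of the chromosomes 1 to 19, X and Y, and 6 of 21887 protein-coding genes. ATAC-seq marks accessible DNA by the insertion of adapters by Tn5 transposase. The cells were stem cells of the large intestine (LISC), Lgr5-EGFP+ cells from the tissue between cecum and rectum, and of the small intestine (SISC), Lgr5-EGFP+/CD24- cells from stretches next to the pylorus and to the cecum. Each group has 2 libraries of 50000 lysed cells. All mice carried Lgr5-EGFP-IRES-creERT2, were 6 to 12 weeks old and received no treatment. In this knock-in line the reporter is known to be expressed in patches, so that cells come from the labelled crypts. Whether replicate libraries stem from different animals is not labelled, and their spread may be partly technical. A CD24 gate is named for SISC alone, so that tissue and gate cannot be told apart in any difference below.

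NADPH oxidases pass electrons from NADPH across a membrane to oxygen and so make superoxide or hydrogen peroxide. Nox1 is the catalytic subunit of the main oxidase of the colonic epithelium, Noxo1 is its organizer and Noxa1 its activator, and the enzyme also needs the membrane partner encoded by Cyba and the GTPase Rac1. Duox2 makes hydrogen peroxide at the apical surface of the gut and needs the maturation factor Duoxa2, while Nos2 is the inducible enzyme that makes nitric oxide from arginine.

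The starts of these genes differ in base composition and in how often they were called. RefSeq promoters of the GRCm38.p6 assembly (the coordinates of mm10), from 250 bases before to 50 after the gene start, were matched for 5 of the 6 genes, and Nos2 was not matched. They are shown because they contrast the Nox1 start, which was not called in every library, with the starts of its subunits and of the Duox2 and Duoxa2 pair, which were. Each is printed 5′ to 3′ on the strand of the gene, with matches to the motifs named below in capitals.
Nox1, chrX:134111805-134112104, minus strand: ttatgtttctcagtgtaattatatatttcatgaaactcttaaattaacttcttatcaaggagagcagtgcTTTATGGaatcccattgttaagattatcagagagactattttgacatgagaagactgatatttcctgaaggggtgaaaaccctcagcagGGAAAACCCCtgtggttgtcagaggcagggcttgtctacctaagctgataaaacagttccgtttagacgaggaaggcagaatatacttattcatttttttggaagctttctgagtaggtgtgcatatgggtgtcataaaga
Noxo1, chr17:24695984-24696283, plus strand: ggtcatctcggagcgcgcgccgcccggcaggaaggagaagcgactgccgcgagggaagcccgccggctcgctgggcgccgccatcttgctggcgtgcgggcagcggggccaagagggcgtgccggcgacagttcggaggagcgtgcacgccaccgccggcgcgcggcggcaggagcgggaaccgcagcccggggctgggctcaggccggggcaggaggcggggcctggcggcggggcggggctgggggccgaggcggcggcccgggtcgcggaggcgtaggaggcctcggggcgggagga
Noxa1, chr2:25095156-25095455, minus strand: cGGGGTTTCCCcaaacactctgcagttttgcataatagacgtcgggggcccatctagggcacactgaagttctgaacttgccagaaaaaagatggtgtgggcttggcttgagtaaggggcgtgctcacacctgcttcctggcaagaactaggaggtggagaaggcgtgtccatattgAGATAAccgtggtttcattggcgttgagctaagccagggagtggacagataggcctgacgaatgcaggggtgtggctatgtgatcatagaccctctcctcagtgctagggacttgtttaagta
Duox2, chr2:122298178-122298477, minus strand: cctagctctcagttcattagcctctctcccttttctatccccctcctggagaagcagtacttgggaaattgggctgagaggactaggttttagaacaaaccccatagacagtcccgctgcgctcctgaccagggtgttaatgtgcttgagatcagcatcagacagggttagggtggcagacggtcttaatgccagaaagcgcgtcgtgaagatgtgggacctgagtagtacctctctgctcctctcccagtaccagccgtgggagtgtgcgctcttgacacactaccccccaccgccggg
Duoxa2, chr2:122298650-122298949, plus strand: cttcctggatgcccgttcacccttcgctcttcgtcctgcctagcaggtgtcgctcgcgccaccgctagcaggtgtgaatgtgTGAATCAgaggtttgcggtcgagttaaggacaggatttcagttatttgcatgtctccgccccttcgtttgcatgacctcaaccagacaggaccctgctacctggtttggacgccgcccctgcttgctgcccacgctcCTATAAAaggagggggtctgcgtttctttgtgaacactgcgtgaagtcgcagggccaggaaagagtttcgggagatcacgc

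The Nox1 promoter held 38.0% G and C and 2 CpG dinucleotides, and 7.04% of the 32851 promoters had a lower G and C content. The Noxo1 promoter held 80.3% G and C and 46 CpG dinucleotides. Noxa1 (52.0% and 8), Duox2 (55.3% and 10) and Duoxa2 (56.7% and 19) lay nearer to the medians of all promoters, 52.7% G and C and 7 CpG. Motifs were searched on both strands, and positions are those of a match's first base, with -1 the base just before the start. TTTATNG (CDX; in 10.9% of all promoters of this length) was found in Nox1 at -180, and the NF-kB consensus (8.46%) in Nox1 at -91 and in Noxa1 at -249. AGATAA, the letters of the GATA family, in 11.2% of promoters, was found in Noxa1 at -73. TGANTCA (AP-1; 7.81%) was found in Duoxa2 at -168. TATAAA, the core of the promoter box named after it (13.6%), was found in Duoxa2 at -30, overlapping a match to the CDX letters on the other strand. TTCNNNGAA (STAT; 8.30%), ATCAAAG (TCF; 3.73%) and CAAAGTCCA (HNF4; 0.475%) matched none of the 5 windows, and Noxo1 and Duox2 held no match to any motif. A match describes letters, not binding.

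Peaks were called by the authors in each library separately, with 91313 and 88739 peaks in LISC replicates 1 and 2 and 83443 and 93220 in SISC replicates 1 and 2. Read depth is unknown. Each peak carries the authors' −log10 q and fold enrichment, which describe it within its own list; its percentile is its place by −log10 q in that list, with 100 the strongest. As the lists differ in length, percentiles are given side by side as descriptions. Y-chromosome regions were called in LISC replicate 1 (8) and SISC replicate 1 (6) and in neither replicate 2 library, so replicates stand apart across both groups alike. Starts of marker genes are set beside those of all genes, of which 62.1% were called in all 4 libraries and 32.4% in none. The starts of all 6 epithelial marker genes and of 5 of 6 stem cell genes had a region in every library. The other was Olfm4, called in both SISC libraries alone. Of 10 immune genes, 2 and 1 starts were called in the LISC libraries and 2 and 2 in the SISC libraries, and Ptprc, Cd3e and Adgre1 had none. Of 8 Paneth, goblet and deep crypt secretory genes, 7 and 8 starts were called in LISC and 7 and 7 in SISC. Of 8 stromal and endothelial genes, 4 and 3 were called in LISC and 5 and 4 in SISC. Col1a1, Vim and Des of these, and Spi1 of the immune genes, were called in all 4 libraries.

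With 2 libraries against 2, an exact permutation test over libraries cannot go below p = 0.333, so the results are counts and values set beside those of all regions or genes. A LISC-only region is one with a call in both LISC libraries and in no SISC library, and SISC-only is the converse; these made up 10.2% and 7.97% of all merged regions, and 48.2% were called in all 4 libraries. A missing call does not show that a site is closed, and in bulk cells a site open in fewer cells cannot be told apart from one less open in each. Near the 6 genes, 12 regions were LISC-only (7.19%), 6 SISC-only (3.59%) and 105 called in all 4 libraries (62.9%). By gene these were spread unevenly: 8 of the 12 LISC-only regions lay at Nox1 and 4 at Noxa1, while 3 of the 6 SISC-only regions lay at Nos2. The LISC libraries held 135 and 137 of the regions and the SISC libraries 121 and 130. This was 136 ± 1.41 against 126 ± 6.36 (mean ± SD, n = 2 each), and the groups did not overlap. By gene, the difference of means, LISC minus SISC, was 9.5 at Nox1 and 5 at Noxa1. It was -2 at Nos2 and -1 at each of Noxo1, Duox2 and Duoxa2, so the excess lay at Nox1 and Noxa1. Over the whole genome the groups overlapped, with 86104 and 85624 regions in the LISC libraries and 77966 and 90986 in the SISC libraries. The difference near the 6 genes, 10.5 regions per library, was -0.5 when each list was limited to its 41721 strongest peaks.

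**Figure D1:**
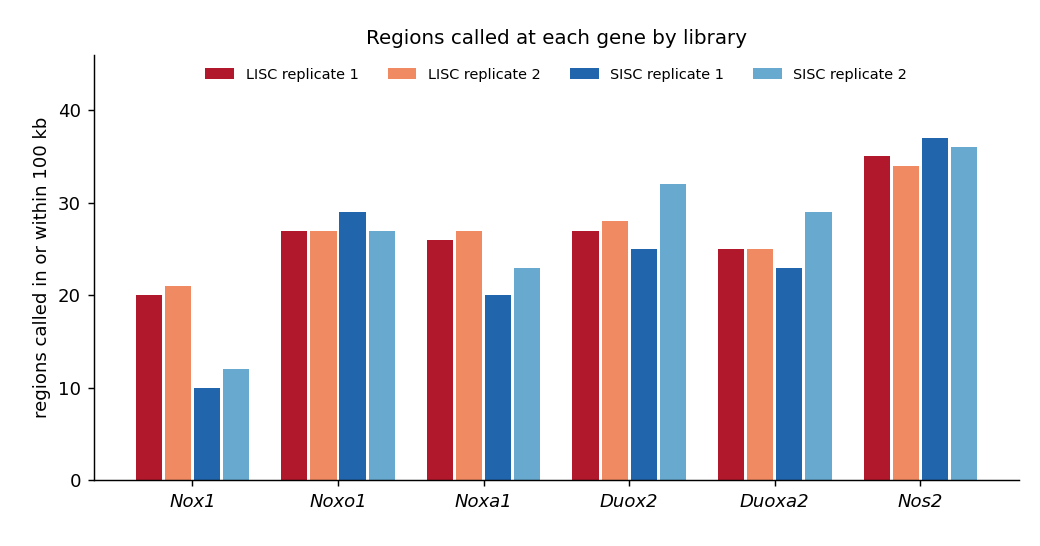
Number of regions called in or within 100 kb of each gene (y axis) in each library (bars; LISC left of SISC). At Nox1 the LISC libraries have 20 and 21 regions and the SISC libraries 10 and 12; at Duox2 and Duoxa2, which share 33 regions, the groups overlap.

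Nox1 (chromosome X, 134086421 to 134137711) had the most one-sided surroundings of the 6 genes. Of its 22 regions, 8 were LISC-only (36.4%), none was SISC-only and 9 were called in all 4 libraries. On chromosome X as a whole, 10.1% of 2648 regions were LISC-only and 8.12% SISC-only. Of all genes, 135 (0.617%) had at least as many net LISC-only regions within 100 kb, where neighbouring genes share regions, and the median gene had a net of 0. The libraries held 20 and 21 Nox1 regions in LISC replicates 1 and 2, against 10 and 12 in SISC replicates 1 and 2. Both LISC libraries thus had more than either SISC library, also within each replicate number, with a difference of means of 9.5 (exact two-sided permutation p = 0.333). The same order of libraries was found at 14.5% of all genes.

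At the Nox1 start itself, on the minus strand at 134111854, a region of 325 bp (134111715 to 134112039) covered 235 of the 300 promoter bases printed above. Its −log10 q was 28.3 and 14.7 in the LISC libraries and 5.64 in SISC replicate 2, and it was not called in SISC replicate 1. The fold enrichment was 4.87 and 3.21 in LISC and 2.95 in SISC replicate 2. In percentiles it stood at 43.8 and 33.0 in LISC and at 5.36 in the lone SISC library. A start called in both LISC libraries and 1 SISC library was found for 0.512% of all genes, and starts called in all 4 libraries for 62.1%. The other 5 genes all had a region at their start in all 4 libraries. Starts called in both SISC libraries alone were found for 1.28% of all genes, and starts called in some other mixture of libraries, the class that holds Nox1, for 3.63%.

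**Figure D2:**
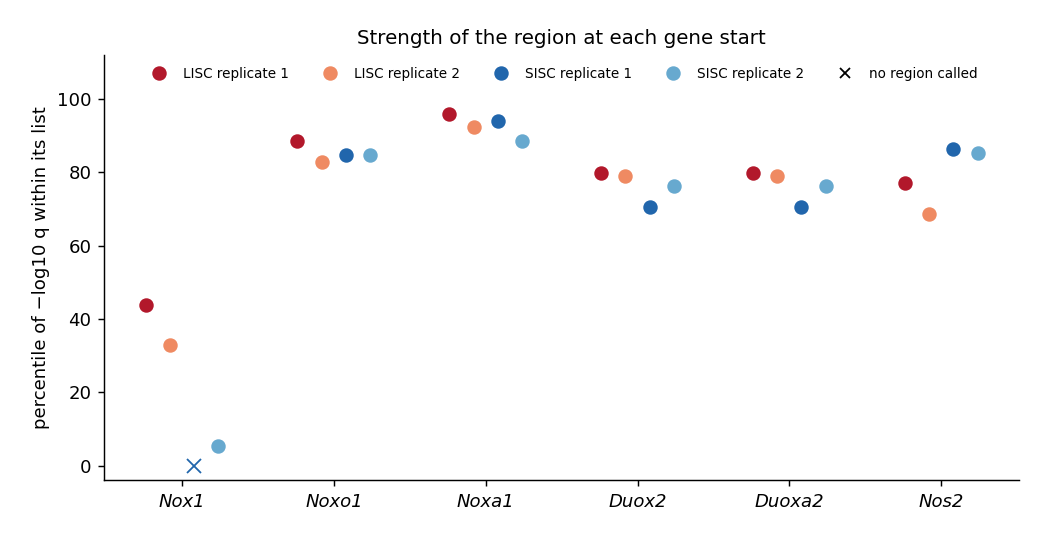
Percentile of −log10 q within its own list (y axis, 100 strongest) of the region at each gene start, by library (points, LISC left of SISC; a cross marks no call). Nox1 stands at 43.8 and 33.0 in LISC, 5.36 in SISC replicate 2 and uncalled in SISC replicate 1, while the other starts lie between 68.6 and 95.9.

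Within the Nox1 gene, whose annotated span reaches 25.9 kb upstream of this start, 10 regions were found, 10 and 9 of them called in the LISC libraries and 4 and 6 in the SISC libraries. Of these, 3 were LISC-only. The LISC-only region nearest to the start, 1.56 kb downstream of it (134110053 to 134110294), was weak, with a −log10 q of 6.76 and 9.56 in the LISC libraries. The region at 134089453 to 134089980, 21.9 kb downstream, showed a −log10 q of 33.8 and 9.65, and that at 134129311 to 134129698, 17.5 kb upstream, 12.9 and 5.99. Another 5 lay beyond the 3′ end of Nox1, in and past Cstf2, a gene of mRNA 3′ end processing whose span overlaps that end. None lay beyond the other end of Nox1, where 3 regions were found. The closest of the 5 (134083186 to 134083758) lay 2.66 kb from Nox1 and inside Cstf2, with a −log10 q of 17.2 and 12.0. The strongest (134041477 to 134042083), 44.3 kb away, reached a −log10 q of 98.5 in LISC replicate 1 and 20.7 in LISC replicate 2, at percentiles 74.6 and 43.1. The remaining 3 lay 33.3, 86.2 and 90.2 kb from the gene with −log10 q between 12.6 and 32.9; the next region outwards, 104 kb away, was called in all 4 libraries. All 8 were narrow, at 242 to 607 bp. By nearest annotated gene end, 2 of the 8 belonged to Nox1 and the others to Cstf2 or Sytl4. None of them was among the 41721 strongest peaks of both LISC lists, so that with such peaks alone the LISC-only count was 0; Nox1 then held 4 and 4 regions in LISC against 2 and 3 in SISC.

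Of the 9 Nox1 regions called in all 4 libraries, 4 (44.4%) stood higher in both LISC lists and 2 (22.2%) in both SISC lists, beside 24.7% and 29.3% of all such regions. The 2 higher in SISC lay outside the gene on the side of Xkrx. They stood at percentiles 36.0 and 31.2 in LISC against 47.6 and 52.5 in SISC (134183804 to 134185076), and at 26.6 and 28.4 in LISC against 34.4 and 63.8 in SISC (134190256 to 134191040). Of the 4 regions inside Nox1 that were called in all 4 libraries, 3 were placed higher in both LISC lists. Upstream of the start, at 4.32 kb (134116175 to 134116752), the −log10 q was 63.0 and 22.9 in LISC and 8.0 and 11.9 in SISC, at percentiles 64.4 and 46.2 against 10.0 and 23.2. At 5.26 kb (134117116 to 134117762) it was 42.2 and 37.3 in LISC and 5.12 and 10.2 in SISC. At 15.4 kb (134127225 to 134128057) it was 62.7 and 22.8 in LISC and 6.81 and 19.0 in SISC. In these 3 regions both LISC percentiles exceeded both SISC percentiles. The fourth (134132365 to 134133050) overlapped between groups, at 37.2 and 22.7 in LISC and 34.4 and 30.1 in SISC. A region between them (134119602 to 134120377) was called in both LISC libraries (−log10 q 30.4 and 22.1) and in SISC replicate 2 (5.64). The start of the neighbour Cstf2, by contrast, was similarly placed in every list, at percentiles 94.8 and 90.4 in LISC and 93.6 and 92.8 in SISC.

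Some starts of secretory cell genes were ordered as Nox1 was, and others were not. Whether the CD24 gate, named for SISC alone, bears on these genes was not tested. Of the 8 such genes, Spdef, a goblet cell transcription factor gene, had a start called in both LISC libraries (percentiles 19.9 and 26.4). It was called in no SISC library, a pattern found for 0.621% of all genes. Muc2, the main goblet cell mucin gene, stood at 72.2 and 56.6 in LISC and at 7.45 and 17.0 in SISC, and Reg4 at 43.0 and 46.7 in LISC and 17.3 and 13.1 in SISC. Agr2 was also higher in both LISC lists, at 74.5 and 80.6 against 64.8 and 68.2. Of all regions called in all 4 libraries, 24.7% had this order. Lyz1, a Paneth cell gene, was placed the other way, at 18.4 in LISC replicate 2 and 55.4 and 66.4 in SISC, with no call in LISC replicate 1. The groups overlapped at Kit, Mmp7 and Fcgbp. Net LISC-only regions were above 0 at 3 of the 8 genes and below 0 at 2, with a median of 0, beside 32.2% and 34.5% of all genes. The part of these cells in the Nox1 values was not tested.

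**Figure D3:**
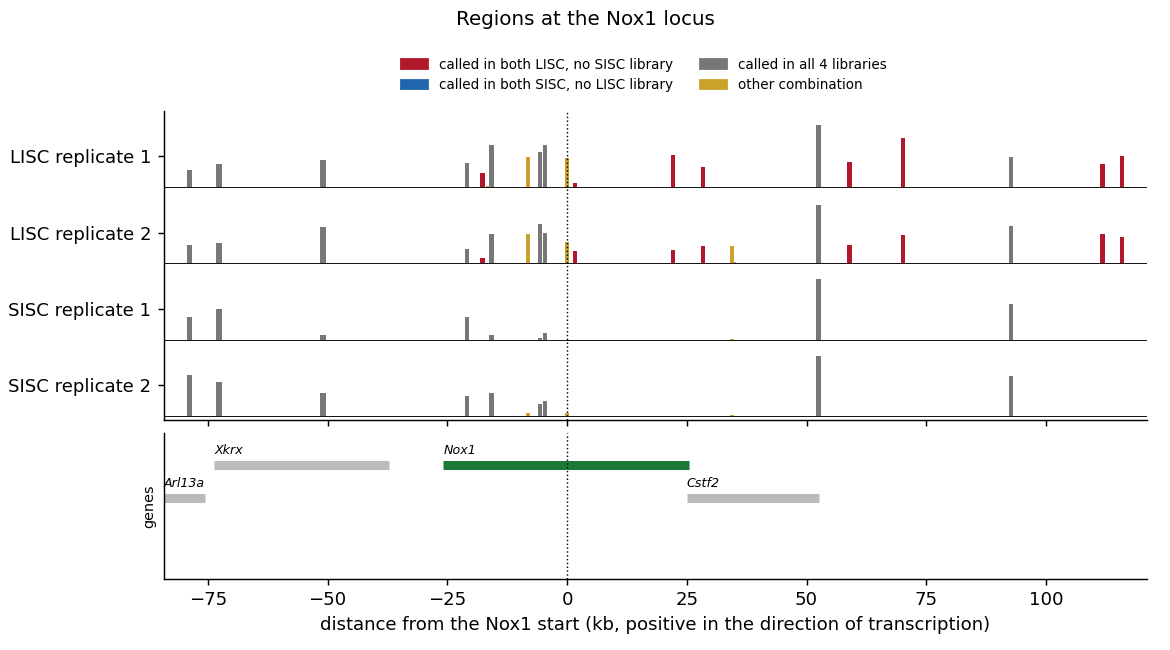
Regions at Nox1 by library (rows), against the distance from the Nox1 start in kb (x axis, positive downstream; dotted line at the start). Bar height is the percentile of −log10 q within the list, colour the pattern of calls, and narrow regions are widened for visibility; green marks Nox1 and grey other genes. The 8 LISC-only regions lie in and downstream of Nox1, with 1 upstream of the start, and the grey bars just upstream of the start are taller in LISC than in SISC.

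Noxo1, which encodes the organizer that holds the Nox1 complex at the membrane, had no group-only region. At Noxo1 (chromosome 17, 24696234 to 24700530) 25 of 31 regions were called in all 4 libraries, and none was LISC-only or SISC-only. The LISC libraries held 27 and 27 regions and the SISC libraries 29 and 27. At the start region (24695331 to 24697129) the −log10 q was 215 and 94.5 in LISC and 174 and 145 in SISC. It is shared with the start of Gfer, a sulfhydryl oxidase gene that ends 0.078 kb away, and the reads at the 2 genes cannot be assigned to either. The 2 other regions inside Noxo1 were also called in all libraries, with percentiles of 82.3 and 76.0 in LISC against 82.9 and 71.3 in SISC for the first and 57.3 and 64.5 against 57.8 and 62.3 for the second. Of the 25 shared regions around the gene, 2 stood higher in both LISC lists and 7 in both SISC lists, beside 24.7% and 29.3% of all shared regions.

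Noxa1 encodes the activator that switches the Nox1 complex on. At this gene (chromosome 2, 25085667 to 25095205) 19 of 32 regions were called in all 4 libraries, 4 were LISC-only and 1 was SISC-only. Regions called numbered 26 and 27 in LISC and 20 and 23 in SISC, a difference of means of 5 (exact two-sided permutation p = 0.333). The groups did not overlap, an order found at 14.5% of all genes. The start region (25094049 to 25095859) was among the strongest of the 6 genes in every list, with a −log10 q of 391 and 163 in LISC and 338 and 181 in SISC. Its percentiles, 95.9 and 92.4 in LISC and 93.9 and 88.4 in SISC, overlapped between groups. The other region inside the gene (25093147 to 25093751), 1.45 kb downstream of the start, reached a −log10 q of 117 and 96.5 in LISC and 29.5 and 45.7 in SISC, at percentiles 78.1 and 83.3 against 44.7 and 58.6, which did not overlap. Of the 19 shared regions around Noxa1, 3 (15.8%) stood higher in both LISC lists and 4 (21.1%) in both SISC lists, beside 24.7% and 29.3% of all shared regions. The widest gap ran towards SISC, 60.9 kb away (25156059 to 25156727), at percentiles 10.9 and 50.8 in LISC against 71.6 and 69.8 in SISC. No LISC-only region lay inside Noxa1. The nearest was 15.1 kb away (25070306 to 25070556), with a −log10 q of 10.6 and 7.54, beside the SISC-only region 15.8 kb away (25069463 to 25069866), with 20.0 and 11.3. The strongest (25177734 to 25178072; −log10 q 26.8 and 29.5) lay 82.5 kb away and 2.69 kb from an end of Nrarp, a Notch feedback gene. Within 50 kb of Noxa1 the counts were 1 LISC-only and 1 SISC-only region, so that the difference lay in the outer part of the window.

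Duox2 and Duoxa2 lie head to head on chromosome 2 (122279246 to 122298740 and 122298900 to 122302885), 0.16 kb apart, and 1 region (122297384 to 122299170) covered both promoters. Its −log10 q was 128 and 78.4 in LISC and 81.7 and 95 in SISC. The fold enrichment was 6.24 and 4.79 in LISC and 4.97 and 4.44 in SISC, which overlapped. In percentiles it stood at 79.8 and 78.9 in LISC, against 70.4 and 76.3 in SISC, a gap of a few points that did not overlap. The 37 regions of Duox2 and 33 of Duoxa2 have 33 in common. At Duox2, 23 were called in all 4 libraries, none was LISC-only and 2 were SISC-only. The libraries held 27 and 28 Duox2 regions in LISC and 25 and 32 in SISC, so the groups overlapped (exact two-sided permutation p = 1).

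Neither SISC-only region lay inside a gene of the pair. The weaker (122269903 to 122270179), 9.07 kb beyond the 3′ end of Duox2 towards Sord, a sorbitol dehydrogenase gene, showed a −log10 q of 7.84 and 9.45. The other (122380854 to 122381286), 82.1 kb from Duox2 beyond Shf, had 18.2 and 30.7. The largest percentile gap in favour of LISC lay between Sord and Duox2 (122266163 to 122267361), 11.9 kb from Duox2, with a −log10 q of 151 and 143 in LISC and 65.4 and 45.7 in SISC and percentiles of 82.9 and 90.4 against 65.0 and 58.6. At the 3′ end of Duox2 itself (122278614 to 122279669) the −log10 q was 27.4 and 35.6 in LISC and 13.4 and 22.9 in SISC. Inside Duoxa2 the order was the other way: the region at its 3′ end (122302638 to 122303235) had 57.0 and 25.7 in LISC and 84.8 and 57.3 in SISC, at percentiles 61.9 and 49.4 against 71.2 and 64.3. Of the 23 shared regions at Duox2, 6 (26.1%) stood higher in both LISC lists and 4 (17.4%) in both SISC lists, beside 24.7% and 29.3% of all shared regions. The paralog Duox1, which lies next to the pair, had no region within 1 kb of its listed start in any library. A region called in all 4 libraries (122312564 to 122313970) nevertheless covered the lower-coordinate annotated end of Duox1. The same region lay at the start of its maturation factor gene Duoxa1.

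**Figure D4:**
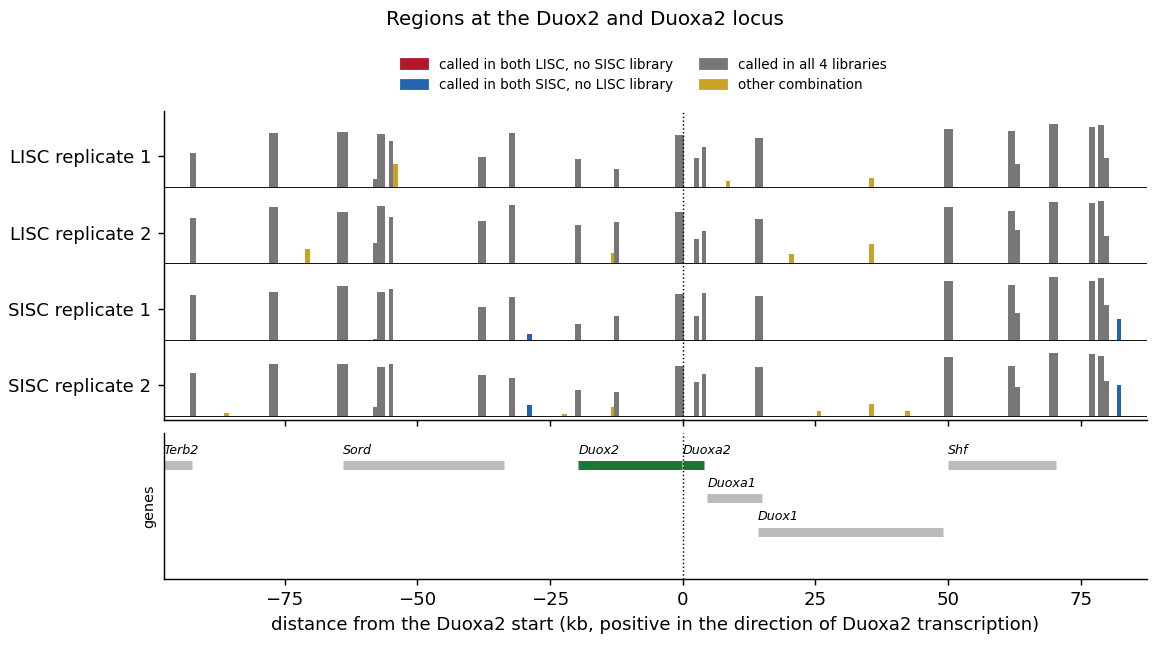
Regions at Duox2 and Duoxa2 by library (rows), against the distance from the Duoxa2 start in kb (x axis). Bar height is the percentile of −log10 q within the list, colour the pattern of calls, and narrow regions are widened for visibility; green marks Duox2 and Duoxa2. Most regions are called in all 4 libraries and 2 are SISC-only.

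Nos2 (chromosome 11, 78920787 to 78960226) had no LISC-only and 3 SISC-only regions among 45, with 29 called in all 4 libraries. A net of at least 3 SISC-only regions was found at 9.76% of all genes. The libraries held 35 and 34 Nos2 regions in LISC and 37 and 36 in SISC (exact two-sided permutation p = 0.333); both LISC libraries had fewer than either SISC library, an order found at 21.2% of all genes. As no strand is given for Nos2 in the table used, both ends of the gene were examined, and a region was found at the lower-coordinate end alone. In this region (78920469 to 78921398) the −log10 q was 111 and 51.2 in LISC and 191 and 150 in SISC. Its fold enrichment was 7.43 and 5.02 in LISC and 7.52 and 6.17 in SISC, which overlapped, and its percentiles were 77.1 and 68.6 in LISC against 86.2 and 85.3 in SISC, which did not.

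The shared regions around Nos2 leaned towards SISC in their place within the lists. Of the 29, 14 (48.3%) stood higher in both SISC lists and 7 (24.1%) in both LISC lists, beside 29.3% and 24.7% of all shared regions. The median difference in mean percentile, LISC minus SISC, was -6.29 points, against -0.626 for all shared regions. By nearest annotated gene end, 10 of the 45 regions around Nos2 belonged to Nos2 and the others to Lyrm9, Lgals9 or Ksr1. The 3 SISC-only regions were among these others. The widest gap was at 79008055 to 79008868, 47.8 kb from Nos2 and nearest to Ksr1, a scaffold gene of the MAP kinase pathway, with a −log10 q of 13.0 and 10.2 in LISC and 91.0 and 64.5 in SISC. Among the regions higher in SISC, the next was 78903745 to 78905538, 15.2 kb outside the gene at its called end, with 20.3 and 15.2 in LISC and 93.9 and 77.4 in SISC. Inside Nos2, 1.74 kb from that end (78922527 to 78923407), it was 32.3 and 38.4 in LISC and 61.2 and 57.5 in SISC. The order was reversed, with a gap nearly as wide, at 78867502 to 78868207, 52.6 kb away, with 93.4 and 68.1 in LISC and 23.8 and 13.2 in SISC. Of the 3 SISC-only regions, that nearest to Nos2 (78961975 to 78962343; −log10 q 21.0 and 13.9) lay 1.75 kb beyond its other end and 0.636 kb from an end of Lgals9, a galectin gene. The other 2 lay 87.4 and 98.7 kb away near Lyrm9. Nos2 is also a macrophage gene. Of the 10 immune genes, 8 had no start called, while the macrophage gene Cd68 stood at 49.7 in LISC replicate 1 and at 67.4 and 74.5 in SISC, with no call in LISC replicate 2. Spi1, a myeloid transcription factor gene, stood at 90.4 and 92.9 in LISC and 94.2 and 95.5 in SISC. Net LISC-only regions were below 0 at 6 of the 10 immune genes and above 0 at 3, with a median of -1.5, beside 34.5% and 32.2% of all genes. Itgam and Itgax, integrin genes of myeloid cells, each had 1 LISC-only and 8 SISC-only regions. These 2 genes lie side by side on chromosome 7 and their windows overlap, so their counts are not separate. Lyz2, with 0 LISC-only and 3 SISC-only regions, lies beside the Paneth cell gene Lyz1, and their windows overlap too. Among the 3 genes above 0, Csf1r had 4 LISC-only and 2 SISC-only regions and Ptprc 2 and 0. The part of such cells in the Nos2 values was not tested.

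**Figure D5:**
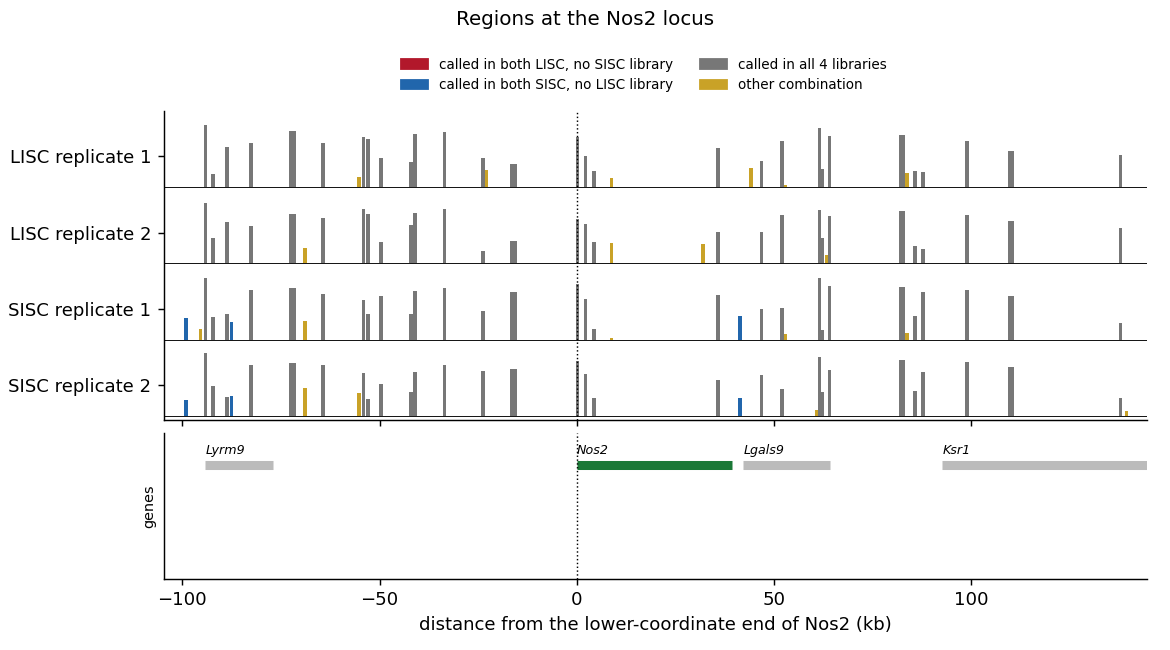
Regions at Nos2 by library (rows), against the distance from its lower-coordinate end in kb (x axis). Bar height is the percentile of −log10 q within the list, colour the pattern of calls, and narrow regions are widened for visibility; green marks Nos2. The 3 SISC-only regions lie outside the gene, and the tallest contrast is at 47.8 kb beyond the gene near Ksr1.

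Other genes of these pathways were examined in 3 lists. Of all genes, 62.1% had a start called in all 4 libraries and 32.4% in none. Of 12 oxidase family and subunit genes, 3 had a start called in all 4 libraries (Cyba, Rac1 and Duoxa1) and 8 in none, among them the phagocyte oxidase genes Cybb, Ncf1 and Ncf4. Rac2 was called in LISC replicate 2 and both SISC libraries. Net LISC-only regions were above 0 at 4 of the 12 and below 0 at 5, with a median of 0, beside 32.2% and 34.5% of all genes. Cyba, the membrane partner of Nox1, had 5 LISC-only and 2 SISC-only regions. Hvcn1, a proton channel gene, had 2 and 0. The lowest were Rac1, with 0 and 2, and Duox1 and Duoxa1, which share the 2 SISC-only regions described above.

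Of 16 genes of nitric oxide and arginine handling, 13 starts were called in all 4 libraries and 3 in none (Nos1, Gucy1a1 and Gucy1b1). The shares of all genes were 62.1% and 32.4%. Net LISC-only regions were above 0 at 8 and below 0 at 7, with a median of 0.5, beside 32.2% and 34.5% of all genes. Ddah1, which breaks down an inhibitor of nitric oxide synthases, had 6 LISC-only regions and 1 SISC-only region. Arg2, an arginase gene that competes for the same substrate, had 1 LISC-only and 7 SISC-only regions, and Slc7a2, a cationic amino acid transporter gene, 0 and 6. Nos3, Slc7a1 and Adh5 each stood at a net of -3. Of 18 genes that handle superoxide and peroxide, 15 starts were called in all 4 libraries, beside the same 62.1% of all genes. Their net was above 0 at 6 and below 0 at 5, with a median of 0, beside 32.2% and 34.5% of all genes. Lpo, a peroxidase gene, had a start called in both LISC libraries and no SISC library, as 0.621% of all genes did, at percentiles 17.0 and 12.2. It also had 4 LISC-only regions and 1 SISC-only region. Sod3, Gpx2, Gpx3 and Mpo stood at a net of 2, Prdx2 at -3, and Gpx1 and Gpx4 at -2. Lpo and Mpo lie side by side on chromosome 11 and their windows overlap, so their counts are not separate.

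By the percentile of the start region over the 4 libraries, compared among 14801 other genes with a called start, the genes closest to Nox1 were Ccl8, 5730507C01Rik and Pde6h, at Euclidean distances of 7.04, 7.35 and 7.35 points. None of these was called in a SISC library. The closest to Noxo1 were Gfer, which has the same region, Plxnb2 and L1cam (1.06 and 1.31 points). For Noxa1 they were Id3, Fam83e and Gk (0.984 to 1.77 points), and for Nos2 Kif5c, Rasl2-9 and Ube2ql1 (2.31 to 2.91 points). Duox2 and Duoxa2 share a region, and Acsl5 was also among their closest genes (2.67 points).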

How the data were processed

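The deposited files are MACS2 peak lists, 1 per library, as the peak names carry a single library's name. The submitters' processing notes name the build mm10 and the tools MACS2 2.2.7.1, Bowtie2 2.3.4.1, cutadapt 3.4, bedtools and Picard; for order, settings, Tn5 shift, duplicate handling and calling threshold, the text is not given in the sources used here. Each peak carries values deposited by the authors: a fold enrichment (a ratio), a −log10 p, a −log10 q and a score. The deposited score equals the −log10 q times 10 without its decimals in at least 99.8% of peaks. These depend on the depth of the library, which is unknown, and were used to describe and rank peaks within a list.

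From these lists, peaks were merged at 1 bp overlap, and the result was checked against bedtools 2.31.1, which gave the same 119852 regions. Pattern assignment was also tested on simulated data with known patterns, and distance look-ups for the members against a direct scan of the merged regions. Genes and promoters came from RefSeq tables of GRCm38.p6. Gene starts came from the promoter table for 17492 genes; for the other 4395 both annotated ends were used. A start was called with a region within 1 kb. The exact permutation test over libraries was the sole test. The members, lists and named items were chosen with earlier results of these data known. Named were all members, their group-only regions, list genes with a start called in 1 group, the list genes furthest from a net of 0, up to 3 each way unless tied, and the 3 genes per member with the closest start percentiles; shared regions described in detail were chosen after their values were seen. Some items that this rule names are not reported here. Alternatives were other peak numbers, summit windows, 50% cover, other distances, nearest-gene assignment and leaving out each library. Software was matplotlib 3.10.9, scipy 1.17.1, pandas 2.3.3, numpy 2.4.6 and Python 3.11.15.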

Additional observations from a re-analysis of the deposited data

How the results depend on the processing

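No paired analysis was possible because the labels do not say that a replicate number marks a shared animal or day. With 2 libraries per group, and no fitted model to hold the replicate number as a block, differences within replicate numbers are given as descriptions. Within replicate numbers 1 and 2, LISC minus SISC was 14 and 7 regions near the 6 genes. It was 10 and 9 at Nox1, 6 and 4 at Noxa1, -2 and -2 at Nos2, and 2 and -4 at Duox2. Percentiles among equal numbers of strongest peaks were chosen after seeing the data; the other alternatives were planned. Counts near the 6 genes are given as LISC-only, SISC-only and all 4 libraries. They were 12, 6 and 105, and became 3, 3 and 56 when lists were limited to their 41721 strongest peaks, 7, 3 and 67 within 50 kb, 4, 2 and 29 within 10 kb, and 2, 0 and 22 by nearest gene end, where fewer peaks or a smaller area entered. SISC-only regions were 10 with summit windows. Leaving out 1 library gave 13 to 23 LISC-only and 6 to 16 SISC-only regions, as a lone library then defines a group. LISC-only regions were 23 without LISC replicate 1 and 21 without LISC replicate 2. SISC-only regions were 16 without SISC replicate 1 and 10 without SISC replicate 2. The excess of LISC regions per library, 10.5, was -0.5 among the strongest peaks and 5 by nearest gene end.

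By gene, the net of LISC-only minus SISC-only regions at Nox1 was above 0 in 10 of 11 alternatives and 0 among the strongest peaks. At Noxa1 it was -1 among the strongest peaks and above 0 in 7 alternatives; at Nos2 it was 1 among the strongest peaks and below 0 in 8. At Duox2 it was 1 without LISC replicate 1 and without SISC replicate 2, and -7 without SISC replicate 1; at Duoxa2 it was 1 without SISC replicate 2 and -6 without SISC replicate 1. The cause was not tested. Equal list lengths left 22 shared regions higher in both LISC lists and gave 35 in place of 31 for SISC. At Nos2 that gave 16 of 29 (55.2%), beside 33.5% of all shared regions.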
